A study of Mus musculus with 16 samples.

Results

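The genes described here encode the proteins of the cytoplasmic ribosome of the mouse. They were chosen by name, as every symbol of the form Rps or Rpl with a number and, where present, a paralog letter or copy number, together with Rpsa, Rplp0, Rplp1 and Rplp2. This gave 84 of the 24421 genes in the count files, 33 with names beginning Rps (small subunit) and 51 with names beginning Rpl (large subunit). They lie on 19 chromosomes, and 83 of them are protein coding in GENCODE's M21 annotation of GRCm38, the exception being Rps4l. In the fit across all genes 80 of them had enough counts to be tested, 32 of the small and 48 of the large subunit, among 9642 genes tested in all. The members left out by the filter on low counts were Rpl3l, Rpl10l, Rpl39l and Rps4l. The 80 tested members had at least 10 counts in every library, so none of them passed the filter through 1 group alone.

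Total RNA was measured in myeloid cells from MC38-Ova tumours grown in Kaede transgenic mice on the C57BL/6 background. Kaede is a protein whose fluorescence turns from green to red under violet light, and the tumour was photoconverted and collected later. Kaede-green cells had entered the tumour since that moment and Kaede-red cells had been in it throughout. Viable cells were sorted as CD45+, Kaede+ and CD11b+ and as negative for TER119 and NK1.1, and the labels give the treatment as control for every library. The 4 groups were Kaede-green at 24h, Kaede-red at 24h, Kaede-green at 72h and Kaede-red at 72h after photoconversion, with 4 libraries in each. By the methods all mice were female and were killed at 8 to 14 weeks of age, and the labels place the 16 libraries in 1 batch.

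A ribosome is built from a small subunit, which reads the mRNA, and a large subunit, which joins the amino acids, and each ribosomal protein is needed in about the same number of copies. Most of their mRNAs begin with an uninterrupted run of C and T bases at the transcription start, through which the kinase mTORC1 and the RNA-binding protein Larp1 set how much of each mRNA is translated. In macrophages and monocytes some ribosomal proteins have further known roles, as in the interferon-driven silencing of inflammatory mRNAs by Rpl13a.

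Total counts per library ranged from 3216858 to 15423085. The gene Rn45s, the precursor of ribosomal RNA itself, held 79.0 to 93.4% of the counts in Kaede-green and 55.8 to 84.9% in Kaede-red libraries. Of the counts outside Rn45s, the genes Lars2 and Mir6236, both named after their values were seen, together took 29.2 to 51.3% in Kaede-green and 3.05 to 27.8% in Kaede-red libraries. Between 9709 and 16292 genes had a count in a library, and the 84 members together had 18214 to 168868 counts. Usable depth differed by colour. Counts outside Rn45s were 468092 to 912689 in Kaede-green and 758192 to 5472477 in Kaede-red libraries. The median number of genes with a count was 11160.5 in Kaede-green and 13511.5 in Kaede-red libraries. The kit makes stranded libraries, but the strand setting of the counting is not stated. Among the members, 37 overlap another annotated gene, 25 of them on the same strand and 17 on the other, and 23 have a gene of a small nucleolar RNA inside. Counts of 4 members could not be separated from those of a copy: Rpl26 had the same counts as Gm15772 in every library, and Rpl30, Rps27 and Rpl34 were within 2% of Gm12191, Rps27rt and Rpl34-ps1 in every library.

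The sort was checked against marker lists. All 6 leukocyte and myeloid markers were tested, and the CD11b gene Itgam stood at 84.2, 76.2, 69.8 and 75.7 CPM in Kaede-green and 88.2, 81.6, 70.9 and 59.6 CPM in Kaede-red libraries of 24h, and at 103, 85.5, 63.7 and 67.4 CPM and 166, 141, 142 and 146 CPM at 72h. CPM is here edgeR's scaled count, relative to a library size corrected by trimmed means of M-values (TMM). At 72h every Kaede-red library was above every Kaede-green one for this gene, while at 24h the groups overlapped. The 5 tumour epithelial genes, led by Cdh1, were all left out of the test for low counts, and their sum was at most 3.68 CPM in any library.

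Summed over the 84 members, the share of the counts outside Rn45s was 4.50, 4.14, 4.73 and 3.89% in the Kaede-green and 4.07, 4.32, 4.34 and 4.25% in the Kaede-red libraries at 24h. At 72h it was 3.50, 5.05, 4.61 and 3.96% in Kaede-green and 2.33, 3.24, 2.64 and 2.60% in Kaede-red libraries. The Kaede-red libraries of 72h lay below all others, and the Kaede-red libraries of 24h lay among the Kaede-green ones. The widest 95% Wilson interval of such a share reached 0.0570 percentage points to either side, which covers counting error only. Of all counts, Rn45s included, the members held 0.406, 0.557, 0.399 and 0.257% in Kaede-green and 1.37, 1.37, 0.735 and 0.643% in Kaede-red libraries at 24h. The corresponding shares at 72h were 0.412, 0.454, 0.559 and 0.830% and 0.694, 1.09, 0.692 and 1.15%. On this scale Kaede-red libraries were the higher ones, without overlap at 24h and with overlap at 72h. With Lars2 and Mir6236 also left out of the denominator, a choice made after seeing the data, the shares were 9.23, 7.69, 8.16 and 6.46% in Kaede-green and 4.45, 4.71, 5.32 and 5.00% in Kaede-red libraries at 24h. At 72h they were 6.81, 8.75, 6.54 and 5.59% and 2.76, 3.62, 3.66 and 2.68%, and Kaede-red was below Kaede-green at both times without overlap.

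After TMM scaling, which sets the libraries level on the bulk of the tested genes, the median log2 CPM of the 80 tested members was 6.92, 6.68, 6.67 and 6.04 in Kaede-green and 5.64, 5.76, 5.89 and 5.78 in Kaede-red libraries at 24h. It was 6.20, 6.53, 6.49 and 6.31 in Kaede-green and 5.14, 5.36, 5.40 and 4.82 in Kaede-red libraries at 72h. All 8 Kaede-red medians lay below all 8 Kaede-green medians, and those of 72h below those of 24h among the Kaede-red libraries. Replicate 4 of Kaede-green 24h was the lowest of its group for 68 of the 80 members and replicate 1 the highest for 57, and replicate 4 of Kaede-red 72h was the lowest of its group for 50. The plot of the members in the 16 libraries sets the scales side by side.

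**Figure D1:**
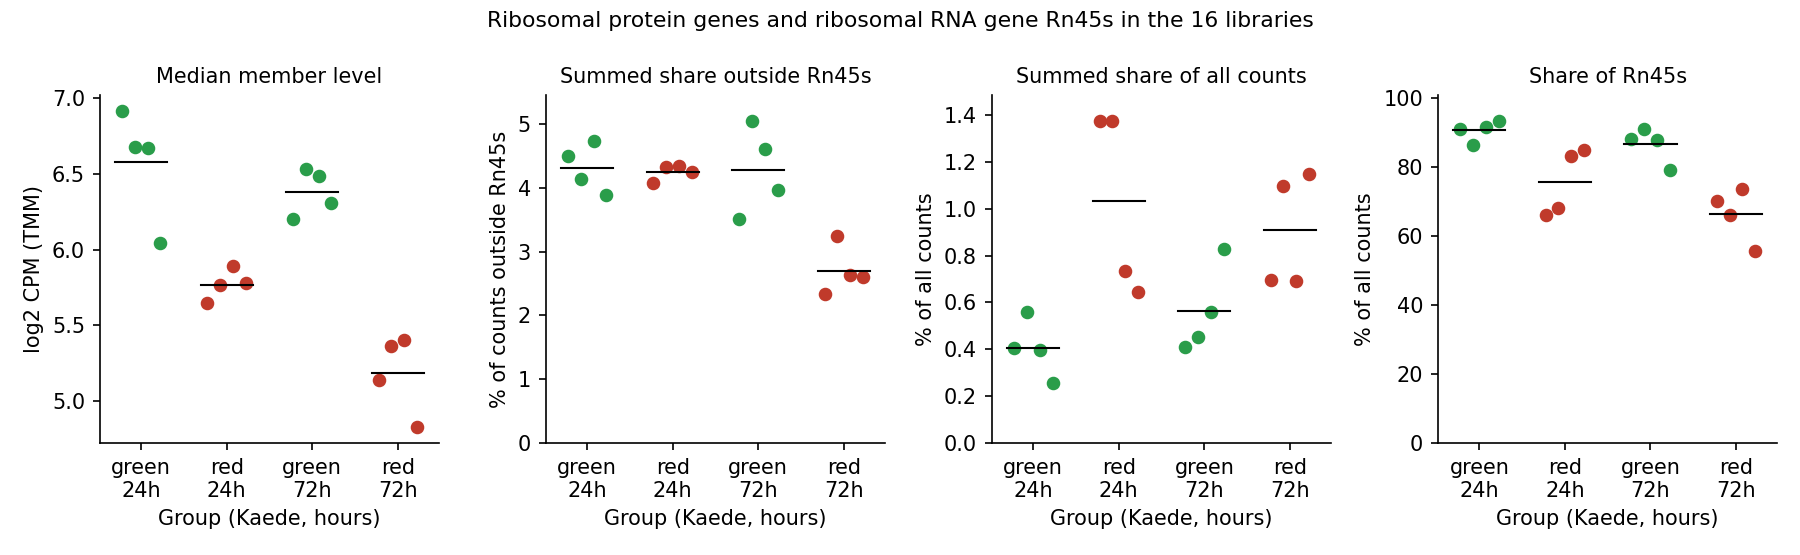
Median log2 CPM of the 80 tested ribosomal protein genes, their summed share of the counts outside Rn45s and of all counts, and the share of Rn45s, in each of 16 libraries (points) with the group mean (line). Kaede-red medians are 4.82 to 5.89 and Kaede-green medians 6.04 to 6.92 after TMM scaling, whereas the order turns when all counts are the denominator, without overlap at 24h and with overlap at 72h.

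Comparing Kaede-red with Kaede-green cells asks how cells that had stayed in the tumour differed from newly entered ones. Over both times, 70 of the 80 tested members were called, and all 70 were lower in Kaede-red cells, by the quasi-likelihood test of edgeR (adjusted p under 0.05 by the Benjamini-Hochberg method). Among all 9642 genes, 10.3% were called lower and 20.3% were called in either direction. Of the other 10 members, 2 were lower and 1 higher at an unadjusted p under 0.05, a limit that 3133 of all genes passed. DESeq2 called 72 members lower and 0 higher, beside 1230 and 1078 of all genes. The median log2 fold change of the members was -1.01, with quartiles of -1.34 and -0.72 and a range from -2.37 to 0.41, beside a median of 0.06 over all genes tested. The median standard error of a member was 0.15. Every Kaede-red library lay below every Kaede-green library for 37 members, against 1.74% of all genes. In bulk RNA, fewer cells of a type and less RNA per cell cannot be told apart.

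At 24h, 57 members were lower and 1 higher in Kaede-red cells, beside 4.28% lower and 3.22% higher of all genes, and their median log2 fold change was -0.93 beside 0.05 for all genes. The groups did not overlap, with Kaede-red below, for 47 members and 5.43% of all genes. At 72h, 66 members were lower and 0 higher, beside 8.76% and 8.06% of all genes, with a median of -1.27 beside 0.03. No member was higher at 72h at an unadjusted p under 0.05 either, a limit that 2879 of all genes passed in 1 direction or the other. DESeq2 called 67 lower and 0 higher, beside 1103 and 858 of all genes. For 64 members all 4 Kaede-red libraries of 72h lay below all 4 Kaede-green ones, against 9.52% of all genes.

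This direction was relative to the other genes and turned with the scaling. With library totals that include Rn45s in place of TMM, 0 members were lower and 66 higher over both times, beside 9318 of the 9642 genes higher, and the members' median was 1.10 while that of all genes was 2.20. With totals outside Rn45s, 36 were lower and 11 higher, beside 234 and 5889 of all genes, with medians of -0.24 for the members and 0.82 for all genes. At 24h the split became 0 lower and 75 higher with Rn45s in the total, beside 9047 of all genes higher, and 3 lower and 10 higher outside it, beside 77 and 4570. At 72h it was 0 lower and 32 higher, beside 8091 of all genes higher, and 41 lower and 5 higher, beside 305 and 3318. The median over all genes shifted by 2.14 with the first scaling, by 0.76 with the second, and by 0.20 with totals outside Rn45s, Lars2 and Mir6236, under which 67 members were lower and 2 higher, beside 621 and 1920 of all genes. Under each of these scalings the members' median lay below that of all genes, as the plot of medians by scaling shows. With the Rn45s share of each library as a covariate, 23 members were lower over both times (median -0.88), 8 in the 24h (-0.72) and 17 in the 72h comparison (-0.99), and 0 were higher in each. Of all 9642 genes, 105, 118 and 75 were lower in that fit. Folds below are after TMM scaling.

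**Figure D2:**
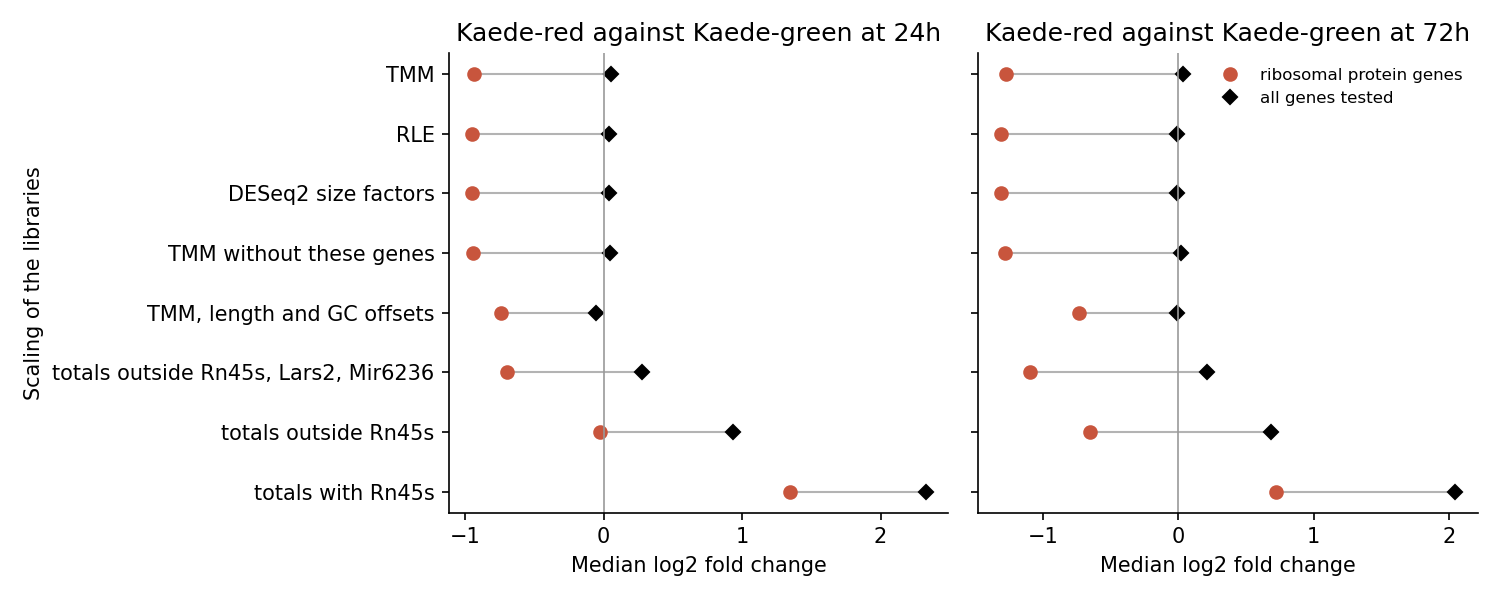
Median log2 fold change, Kaede-red to Kaede-green, of the 80 tested ribosomal protein genes (circles) and of all genes tested (diamonds) under 8 scalings, at 24h and 72h. The circles are below 0 except with totals that include Rn45s, where they are at 1.35 and 0.72, and they lie to the left of the diamonds in every line.

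**Figure D3:**
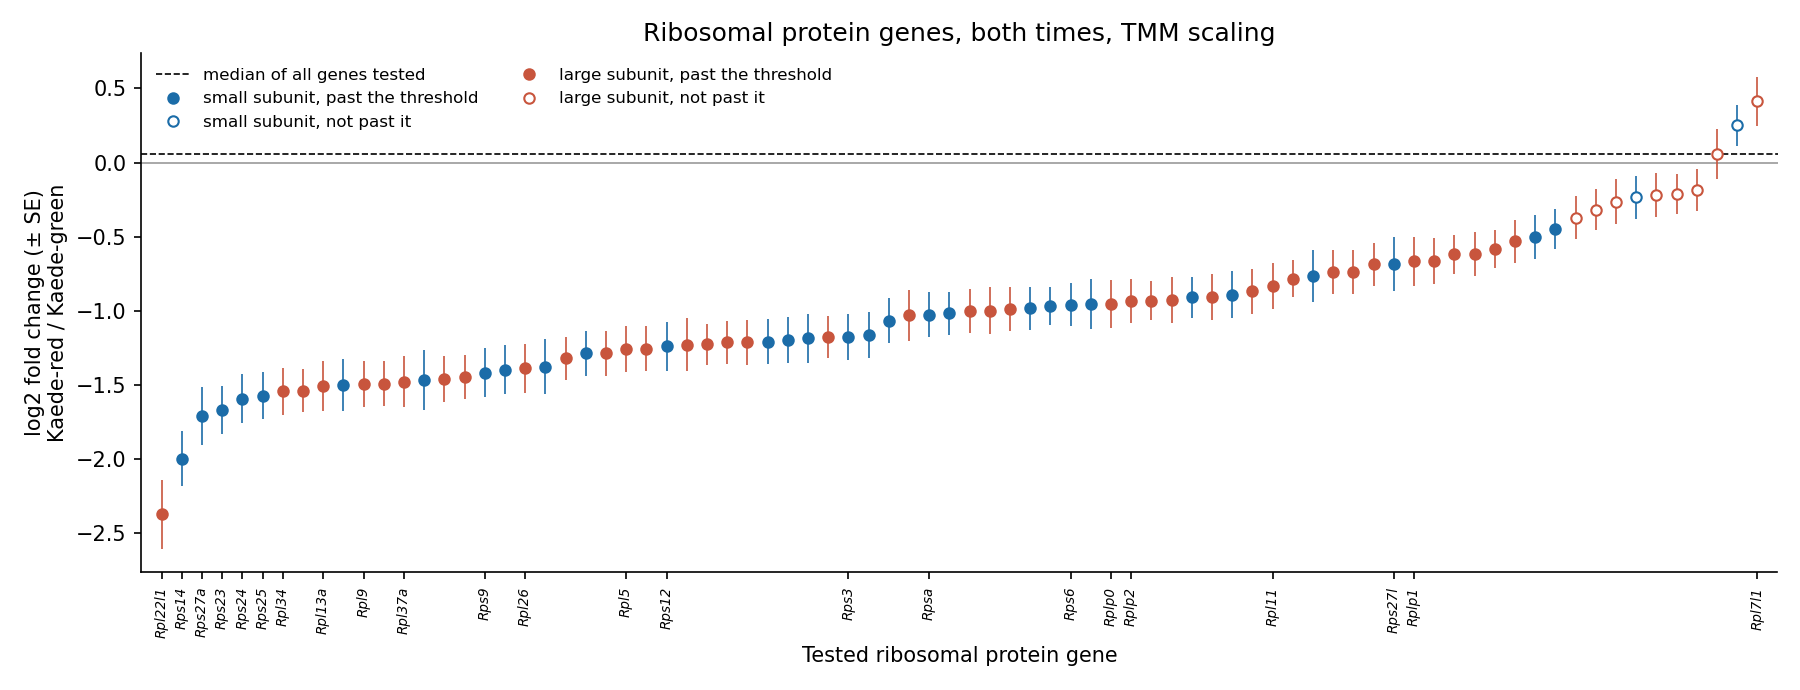
Log2 fold change (± SE) of each of the 80 tested ribosomal protein genes, Kaede-red to Kaede-green over both times, 8 libraries against 8, in order, with names at those picked by the naming rules. Filled points, 70 of 80, passed an adjusted p of 0.05 and lie below 0 after TMM scaling, whereas with library totals that include Rn45s 66 members lie above 0 and pass, as do 9318 of all 9642 genes.

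RefSeq's promoter table for GRCm38.p6 held 63 of the members, 53 of them with a single window of 300 bases, from 250 before to 50 after the annotated start. These windows were searched for 3 textbook features. A run of at least 8 C or T bases between 10 bases before and 20 after the start was in 20 of 53 windows (37.7%). It was in 11.1% of 22862 genes with a single window and 11.5% of the 5813 tested ones. Shorter runs were not counted, and the annotated starts were not checked against those used in these cells. The windows without a match are therefore not shown to belong to mRNAs that lack the run. CCGGAAG, the core of sites for Ets factors, was on either strand in 22 windows (41.5%), beside 9.12% of all and 22.0% of tested genes. The letters TATAAA were on the gene's strand 40 to 20 bases before the start in 1 window (1.89%), beside 2.42% of all and 1.24% of tested genes. Members called over both times had the C or T run in 17 of 44 windows (38.6%), and the other members in 3 of 9 (33.3%). For CCGGAAG these were 17 of 44 (38.6%) and 5 of 9 (55.6%), and for TATAAA 1 of 44 and 0 of 9. A link of these features to the fall was not tested. These matches are descriptions of the letters and not of bound sites.

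The 60 bases from 40 before to 20 after the start follow for 9 members, in the gene's direction, with capitals for the longest whole run of C or T that ends no earlier than 10 bases before the start. They were chosen after the values were seen, to set long and short runs beside large and small changes. Rpl22l1, Rpl13a, Rpl35, Rps23 and Rpl26 were lower in Kaede-red cells, and Rpl7a, Rpl15, Rps2 and Rpl7l1 did not pass the test over both times.
Rpl22l1: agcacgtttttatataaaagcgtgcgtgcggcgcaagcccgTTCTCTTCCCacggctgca
Rpl13a: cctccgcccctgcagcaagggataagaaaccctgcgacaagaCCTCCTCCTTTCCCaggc
Rpl35: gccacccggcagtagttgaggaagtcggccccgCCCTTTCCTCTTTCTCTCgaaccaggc
Rps23: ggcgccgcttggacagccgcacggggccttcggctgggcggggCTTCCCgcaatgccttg
Rpl26: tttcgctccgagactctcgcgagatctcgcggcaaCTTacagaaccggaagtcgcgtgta
Rpl7a: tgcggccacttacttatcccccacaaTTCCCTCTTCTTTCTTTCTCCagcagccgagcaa
Rpl15: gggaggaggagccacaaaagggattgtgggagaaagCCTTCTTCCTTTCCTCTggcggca
Rps2: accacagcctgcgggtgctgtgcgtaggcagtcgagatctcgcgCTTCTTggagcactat
Rpl7l1: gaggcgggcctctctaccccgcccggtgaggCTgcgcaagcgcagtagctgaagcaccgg
The windows are those of Rpl22l1 at chr3:28805468-28805527 on the plus strand, Rpl13a at chr7:45128726-45128785 on the minus strand, Rpl35 at chr2:39005112-39005171 on the minus strand and Rps23 at chr13:90923082-90923141 on the plus strand. The others are Rpl26 at chr11:68901526-68901585 on the plus strand, Rpl7a at chr2:26910767-26910826 on the plus strand, Rpl15 at chr14:18270967-18271026 on the minus strand, Rps2 at chr17:24720023-24720082 on the plus strand and Rpl7l1 at chr17:46782637-46782696 on the minus strand. Their log2 fold changes over both times were -2.37, -1.51, -1.21, -1.67 and -1.39 for the first 5 and -0.22, -0.19, 0.25 and 0.41 for the other 4.

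Of the 32 tested small-subunit genes, 30 were lower over both times with a median of -1.17, 26 at 24h and 28 at 72h, and 0 were higher in any of these under TMM scaling. Rps14, a protein of the platform of the small subunit, had the largest fall among members with a mean log2 CPM of at least 4. Its level was 412, 329, 277 and 219 CPM in Kaede-green and 74.9, 93.7, 109 and 102 CPM in Kaede-red libraries at 24h, and 199, 365, 227 and 220.1 CPM and 47.0, 57.6, 78.2 and 25.4 CPM at 72h. No Kaede-red library reached the lowest Kaede-green one. The log2 fold change at 24h was -1.71 ± 0.26, adjusted p = 6.1e-05, and at 72h -2.29 ± 0.27, adjusted p = 6.7e-07.

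Rps23, which lies at the decoding centre, stood at 457, 393, 439 and 295 CPM in Kaede-green and 117, 147, 178 and 152 CPM in Kaede-red libraries at 24h. At 72h the values were 241, 463, 301 and 251 CPM and 64.5, 92.2, 101 and 73.4 CPM. The groups did not overlap at either time, and replicate 2 of Kaede-green 72h was the highest of all (log2 fold change over both times -1.67 ± 0.16, adjusted p = 6.0e-09). Rps24, one of the genes mutated in Diamond-Blackfan anaemia, had 437, 341, 476 and 301 CPM in Kaede-green and 142, 168, 190.2 and 185 CPM in Kaede-red libraries at 24h, and 270.1, 466, 402 and 279 CPM and 66.3, 112, 114 and 62.2 CPM at 72h. All Kaede-red values were below all Kaede-green values, and the log2 fold change was -1.59 ± 0.17, adjusted p = 1.9e-08. Rps25, known for its part in translation from internal entry sites, had 209, 184, 204 and 122 CPM in Kaede-green and 58.1, 71.4, 87.8 and 77.5 CPM in Kaede-red libraries at 24h. Its values at 72h were 119.9, 179.5, 171 and 125 CPM and 38.6, 47.3, 52.0 and 26.4 CPM, again without overlap, and it fell by 1.57 ± 0.16 on the log2 scale (adjusted p = 1.1e-08).

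Rps27a is made as a fusion with ubiquitin, so its mRNA also supplies free ubiquitin. It stood at 316, 249.9, 441 and 279 CPM in Kaede-green and 99.0, 126, 153 and 141 CPM in Kaede-red libraries at 24h, and at 265, 446, 323 and 160.5 CPM and 58.2, 84.3, 97.9 and 37.3 CPM at 72h. Kaede-red libraries were all below Kaede-green ones, by a narrow gap between 153 CPM in Kaede-red 24h and 160.5 CPM in Kaede-green 72h, and the log2 fold change was -1.71 ± 0.20, adjusted p = 1.0e-07. Rps9, at the entry of the mRNA channel, had 536, 390.4, 494 and 332 CPM in Kaede-green and 160.0, 189, 197 and 165 CPM in Kaede-red libraries at 24h. Its 72h values were 397, 516, 333 and 304 CPM and 125, 164, 166 and 81.0 CPM. The colours were apart at both times (log2 fold change -1.42 ± 0.16, adjusted p = 1.3e-07).

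Rps6, the substrate of the S6 kinases downstream of mTORC1, was at 238, 218, 251 and 163 CPM in Kaede-green and 136, 131, 167 and 136 CPM in Kaede-red libraries at 24h. At 72h it was at 244, 315, 218 and 163 CPM and 88.0, 104, 106 and 81.8 CPM. The groups overlapped at 24h, where it did not pass the test (-0.61 ± 0.21, adjusted p = 0.0655), and not at 72h (-1.31 ± 0.21, adjusted p = 3.1e-05). Rps3, which lines the mRNA entry channel, had a log2 fold change of -1.17 ± 0.16, adjusted p = 9.8e-07 over both times. Rpsa, also known as the laminin receptor precursor, stood at 357, 284, 249.7 and 179.5 CPM in Kaede-green and 134, 145, 131 and 126 CPM in Kaede-red libraries at 24h, and at 252, 250.1, 183 and 201 CPM and 78.9, 125, 126 and 97.9 CPM at 72h. Its Kaede-red values overlapped between the times and lay below every Kaede-green value, with -1.03 ± 0.15 over both times and -1.05 ± 0.21 at 72h on the log2 scale (adjusted p = 4.5e-06 and 5.5e-04).

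Of the 48 tested large-subunit genes, 40 were lower over both times with a median of -0.95, 31 at 24h and 38 at 72h, and 1, Rpl7l1, was higher at 24h, again under TMM scaling. Among them the P-stalk proteins Rplp0, Rplp1 and Rplp2 form the arm that recruits the elongation factors, and all 3 were lower over both times with a median of -0.93. Rplp0, the base of the stalk and a common reference gene in quantitative PCR, was at 390.3, 337, 244 and 157 CPM in Kaede-green and 142, 139, 149 and 115 CPM in Kaede-red libraries at 24h. It was at 209, 241, 185 and 243 CPM and 121, 141, 134 and 88.0 CPM at 72h. Kaede-red was the lower colour in every library, with a wide spread among the Kaede-green libraries of 24h (log2 fold change -0.96 ± 0.16, adjusted p = 3.8e-05). Rplp1 had 236, 147, 124 and 89.6 CPM in Kaede-green and 100.4, 101, 125 and 93.4 CPM in Kaede-red libraries at 24h, which overlapped (-0.50 ± 0.23, adjusted p = 0.203). At 72h it had 77.1, 134, 105 and 122 CPM and 51.6, 72.8, 71.5 and 51.1 CPM, which did not (-0.83 ± 0.23, adjusted p = 0.0114). Rplp2 had a log2 fold change of -0.93 ± 0.15, adjusted p = 1.6e-05 over both times.

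Rpl5 and Rpl11, which outside the ribosome bind Mdm2 and so stabilise p53, had log2 fold changes of -1.26 ± 0.16, adjusted p = 3.5e-07 and -0.83 ± 0.15, adjusted p = 1.6e-04. Rpl5 stood at 337, 304, 364 and 255 CPM in Kaede-green and 149, 159.8, 176 and 163 CPM in Kaede-red libraries at 24h, and at 342, 408, 231 and 208 CPM and 80.1, 118, 124 and 82.7 CPM at 72h, without overlap. Rpl11 was at 81.4, 47.5, 59.4 and 33.1 CPM in Kaede-green and 32.4, 34.3, 32.7 and 44.1 CPM in Kaede-red libraries at 24h, with overlap, and at 55.2, 65.3, 44.8 and 41.4 CPM and 23.6, 28.0, 26.0 and 22.3 CPM at 72h, without. At 24h Rpl11 did not pass the test (adjusted p = 0.0867). Rpl13a, released from the ribosome in the interferon-driven silencing named above, had 472, 416, 393 and 291 CPM in Kaede-green and 162, 179, 199 and 198 CPM in Kaede-red libraries at 24h. At 72h it had 392, 542, 303 and 265 CPM and 78.0, 115, 128 and 74.1 CPM. Kaede-red libraries of 72h were the lowest, and the colours were apart at both times (log2 fold change -1.51 ± 0.17, adjusted p = 4.6e-08).

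Per kilobase of transcript, the tested members had a median level of 93.1 CPM, from 4.33 CPM for Rpl7l1 to 501 CPM for Rpl26. Next after Rpl26 came Rps9 at 379, Rps27a at 321, Rps14 at 297 and Rpl34 at 275 CPM per kilobase. These levels are means over all 16 libraries, and the order differed within groups. They rest on the length of 1 annotated transcript a gene, which was not checked against the mRNAs of these cells. In Kaede-red 24h, Rpl41 (544 nt, mean 117 CPM) stood above Rps14 (597 nt, mean 94.8 CPM). The values of Rpl26 and Rpl34 are uncertain because of the copies with the same or nearly the same counts. Rpl26, at the mouth of the exit tunnel, stood at 397, 357, 446 and 299.8 CPM in Kaede-green and 177, 183, 213 and 184 CPM in Kaede-red libraries at 24h, and at 398, 561, 317 and 242 CPM and 84.9, 117, 144 and 93.0 CPM at 72h. All Kaede-red values were below all Kaede-green ones (log2 fold change -1.39 ± 0.16, adjusted p = 1.7e-07). Rpl34 was at 200.2, 175, 219 and 159.9 CPM in Kaede-green and 71.0, 90.5, 113 and 103 CPM in Kaede-red libraries at 24h, and at 151, 269, 207 and 162 CPM and 37.7, 56.5, 58.7 and 33.6 CPM at 72h. Its colours were apart at both times, with -1.54 ± 0.16 over both times and -2.09 ± 0.23 at 72h on the log2 scale (adjusted p = 1.2e-08 and 2.1e-07). Rpl37a, among the 3 largest falls at 24h of members with a mean log2 CPM of at least 4, had 102, 76.6, 55.6 and 39.3 CPM in Kaede-green and 27.8, 23.1, 25.6 and 25.9 CPM in Kaede-red libraries at that time (-1.41 ± 0.24, adjusted p = 2.6e-04). Its Kaede-green libraries spread widely there, and its Kaede-red ones lay close together.

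The symbols ending in l before a possible number are paralogs of a main ribosomal protein gene. Rpl22l1, the paralog of Rpl22, had the lowest fold change of all members. Its level was 6.21 to 16.4 CPM in the 8 Kaede-green libraries, and 1.84, 3.65, 3.27 and 2.71 CPM at 24h and 1.96, 2.09, 3.02 and 0.969 CPM at 72h in the Kaede-red ones. The highest Kaede-red value was below the lowest Kaede-green value, and the log2 fold change was -2.37 ± 0.23, adjusted p = 7.2e-09. Rpl22 itself, named after its values were seen, had a log2 fold change of -1.54 ± 0.15, adjusted p = 4.2e-09. Rps27l, the paralog of Rps27 and a known p53 target, was at 23.4, 15.6, 19.6 and 14.3 CPM in Kaede-green and 12.9, 16.8, 17.6 and 17.6 CPM in Kaede-red libraries at 24h, with overlap. At 72h it was at 6.58, 19.2, 19.7 and 16.1 CPM in Kaede-green and 5.99, 9.08, 5.90 and 5.83 CPM in Kaede-red libraries, where replicate 1 of Kaede-green lay among the Kaede-red values. It did not pass the test at 24h (-0.16 ± 0.26, adjusted p = 0.779) and was lower at 72h (-1.21 ± 0.26, adjusted p = 0.00106).

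Rpl7l1, the paralog of Rpl7 with a part in the assembly of the large subunit, was the 1 member higher in Kaede-red cells in a comparison. At 24h it had 8.36, 5.33, 11.5 and 7.36 CPM in Kaede-green and 13.8, 14.2, 16.3 and 14.0 CPM in Kaede-red libraries, and every Kaede-red value was above every Kaede-green one (0.81 ± 0.25, adjusted p = 0.0396). Leaving out 1 library at a time, 9 of 16 fits no longer called it, among them every fit without a Kaede-red library of 24h. It was also not called with the Rn45s covariate, with offsets for transcript length and GC content, or with only the groups compared. At 72h its levels were 13.2, 13.4, 9.49 and 8.58 CPM and 10.1, 12.2, 12.6 and 10.2 CPM, which overlapped (0.02 ± 0.23, adjusted p = 0.971), and the interaction of colour and time did not pass (-0.79 ± 0.34, adjusted p = 0.254). The paralogs Rpl3l, Rpl10l and Rpl39l had at most 9, 5 and 4 counts in a library, and Rps4l at most 47, and they were not tested.

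**Figure D4:**
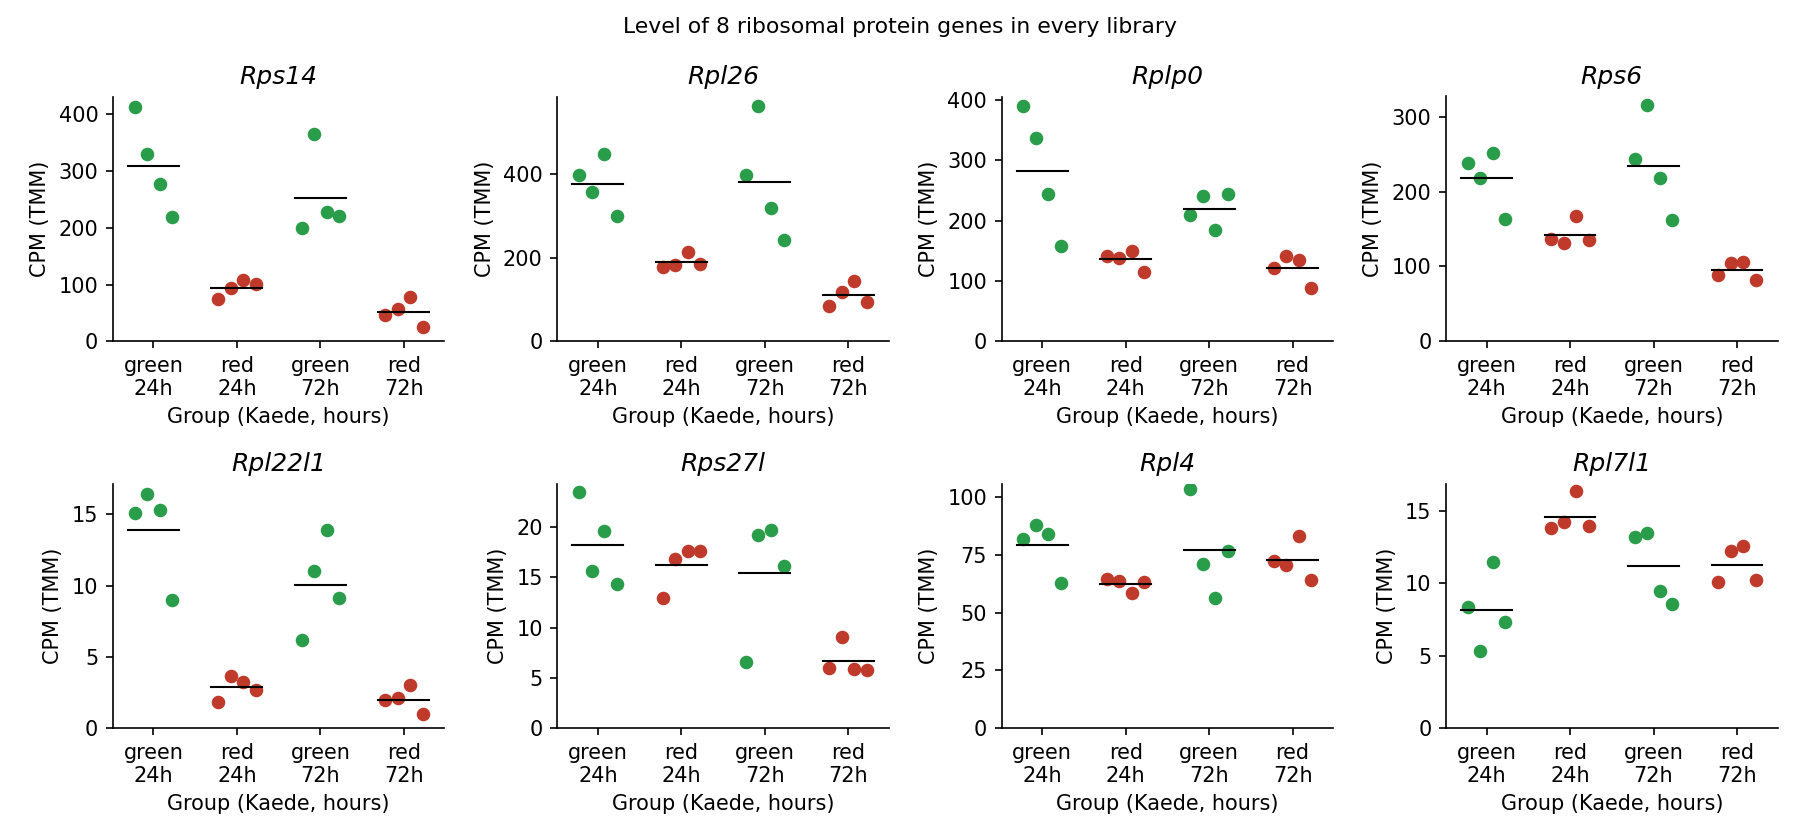
CPM after TMM scaling of 8 ribosomal protein genes in each of the 16 libraries (points) with the group mean (line). Rps14, Rpl26, Rplp0 and Rpl22l1 are lower in every Kaede-red than in every Kaede-green library on this scale. Rps6 overlaps at 24h and Rps27l at both times, and Rpl4 and Rpl7l1 did not pass the test over both times. With totals that include Rn45s, which shift the median of all genes by 2.14, 21 of the 23 members named by rule turn direction.

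Among the members that did not pass the test over both times were Rpl6, Rpl4, Rpl15, Rpl29, Rps2 and Rpl7l1, and apart from Rpl7l1 they are named after their values were seen. The log2 fold changes ran from -0.37 for Rpl6 to 0.41 for Rpl7l1. Rpl4, a protein of the exit tunnel, was at 82.0, 88.1, 84.1 and 63.0 CPM in Kaede-green and 64.6, 63.5, 58.4 and 63.3 CPM in Kaede-red libraries at 24h, and at 103, 71.1, 56.2 and 76.7 CPM and 72.3, 70.7, 83.2 and 64.0 CPM at 72h. The groups overlapped at both times (-0.21 ± 0.13, adjusted p = 0.283). Rps2, at the mRNA entry site, was at 48.5, 51.2, 29.6 and 33.1 CPM in Kaede-green and 51.0, 57.0, 61.9 and 55.1 CPM in Kaede-red libraries at 24h, and at 38.4, 41.5, 38.7 and 39.8 CPM and 40.9, 49.6, 34.6 and 35.2 CPM at 72h. Its Kaede-red values were mostly the higher ones at 24h and mixed with the Kaede-green ones at 72h (0.25 ± 0.14, adjusted p = 0.209). Rpl29 had a log2 fold change of 0.06 ± 0.17, adjusted p = 0.850. The per-kilobase levels of these 3 (47.3 CPM for Rpl4, 44.2 CPM for Rps2 and 31.0 CPM for Rpl29) were below the members' median.

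The comparison of 72h with 24h asks how each population differed with time after photoconversion. In Kaede-green cells 0 members and 0% of all genes were called by edgeR. At an unadjusted p under 0.05 there were 7 members lower and 0 higher, among 835 genes in all. DESeq2 called 0 members, beside 10 lower and 2 higher of all genes. The members' median log2 fold change was -0.22 beside 0.03 for all genes after TMM scaling. It was 0.49 beside 0.74 with library totals that include Rn45s, and -0.02 beside 0.20 with totals outside Rn45s. In Kaede-red cells 32 members were lower and 0 higher at 72h, beside 3.76% lower and 4.92% higher of all genes. The unadjusted counts were 51 lower and 0 higher, beside 2213 of all genes in either direction. DESeq2 called 43 lower and 0 higher, beside 641 and 583 of all genes. The median was -0.52 beside -0.01, and every 72h library lay below every 24h library for 48 members, against 8.76% of all genes. With totals that include Rn45s, 0 members were called, beside 2 lower and 7 higher of all genes, and the median was -0.16 beside 0.42. Most of these calls were also lost with offsets for transcript length and GC content, where 5 were lower and 1 higher (median -0.19), and with the Rn45s covariate, where 4 were lower and 0 higher (median -0.44).

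Rps12 had the largest fall with time in Kaede-red cells, from 43.0, 54.2, 73.9 and 56.8 CPM at 24h to 16.2, 29.9, 26.6 and 20.5 CPM at 72h (-1.29 ± 0.23, adjusted p = 0.00115). The values of the times did not overlap. In Kaede-green cells it was at 123, 81.9, 117 and 68.3 CPM and 56.3, 93.4, 89.5 and 61.9 CPM, which overlapped (-0.37 ± 0.23, adjusted p = 0.674). Rps27l fell by nearly as much (-1.26 ± 0.24, adjusted p = 0.00213). Rpl34 followed with a log2 fold change of -1.02 ± 0.22, adjusted p = 0.00410, and Rpl9 passed with an adjusted p of 0.00431. The count of 32 rested on single libraries: it was 21 without Kaede-red 24h replicate 2, 11 without replicate 3, 16 without replicate 4, 9 without Kaede-red 72h replicate 1 and 10 without its replicate 4. Of all genes, 363 were lower in the main fit and 255, 111, 156, 111 and 149 in these fits, in that order. The median stayed between -0.59 and -0.44 in all 16 fits that left out 1 library.

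Whether the red-green difference itself differed between the times was tested by the interaction. None of the 80 members passed it in edgeR, beside 0.757% of all genes, and 19 were lower and 1 higher at an unadjusted p under 0.05, beside 1476 of all 9642 genes in either direction. DESeq2 called 2 members lower and 0 higher, beside 131 and 159 of all genes. The smallest adjusted p was that of Rpl34 (-1.09 ± 0.31, adjusted p = 0.0721). The members' median was -0.30 beside -0.07 for all genes. Among other edgeR fits, a minimum of 10 counts in every library gave 5 lower, beside 77 of 3084 genes. With totals outside Rn45s 3 were lower, and with a block for replicate number 1, beside 97 and 59 of all genes. In the main fit the larger count of members lower at 72h than at 24h is therefore not shown to be a difference between the times.

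The members have short transcripts. The tested ones had a median length of 768 nt (345 to 5130 nt) beside 2849 nt for all genes tested, and a median GC content of 51.7% beside 50.0%. In Kaede-red cells other short genes were lower as well. Below 500 nt, 14 of 14 members were lower over both times with a median log2 fold change of -1.28, beside 62.0% of 208 other genes with a median of -1.23, and 51.6% of the 64 protein-coding ones with a median of -0.82. From 500 to 1000 nt, 41 of 46 members were lower (median -1.01) beside 27.7% of 585 other genes (median -0.35). From 1000 to 2000 nt the counts were 12 of 16 members (median -0.93) and 10.9% of 2031 other genes (median 0.01). Among genes of at least 2000 nt, 3 of 4 members (median -1.07) and 5.97% of 6687 other genes (median 0.12) were lower. These 4 were Rps15a (5130 nt), Rps20 (3706 nt), Rpl7l1 (2606 nt) and Rpl5 (2045 nt). All lengths are those of 1 annotated transcript a gene, which need not be the mRNA made in these cells. The class of at least 2000 nt therefore does not show how long ribosomal protein mRNAs changed. These counts too are after TMM scaling.

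Across the 80 members, which share libraries and are not independent replicates, longer transcripts had the smaller falls (Spearman's rho of log2 fold change with length 0.35, with GC content 0.26). Over 9511 other genes these were 0.11 and 0.095. With offsets for transcript length and GC content in each library, which removed the trend that all genes shared, 60 members were lower and 0 higher over both times with a median of -0.70, beside 1047 lower of 9591 genes and a median of -0.02. At 24h 50 were lower and 0 higher, and at 72h 51 were lower and 1 higher, with medians of -0.74 and -0.74, beside 547 and 707 lower of all genes. The change with time in Kaede-red cells was down to 5 lower and 1 higher with a median of -0.19, beside 141 lower and 283 higher of all genes, and the interaction's median was -0.03. These correlations and offsets rest on the same annotated lengths, and another choice of transcript was not tried. The part of RNA quality or priming in the trend with length was not tested.

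**Figure D5:**
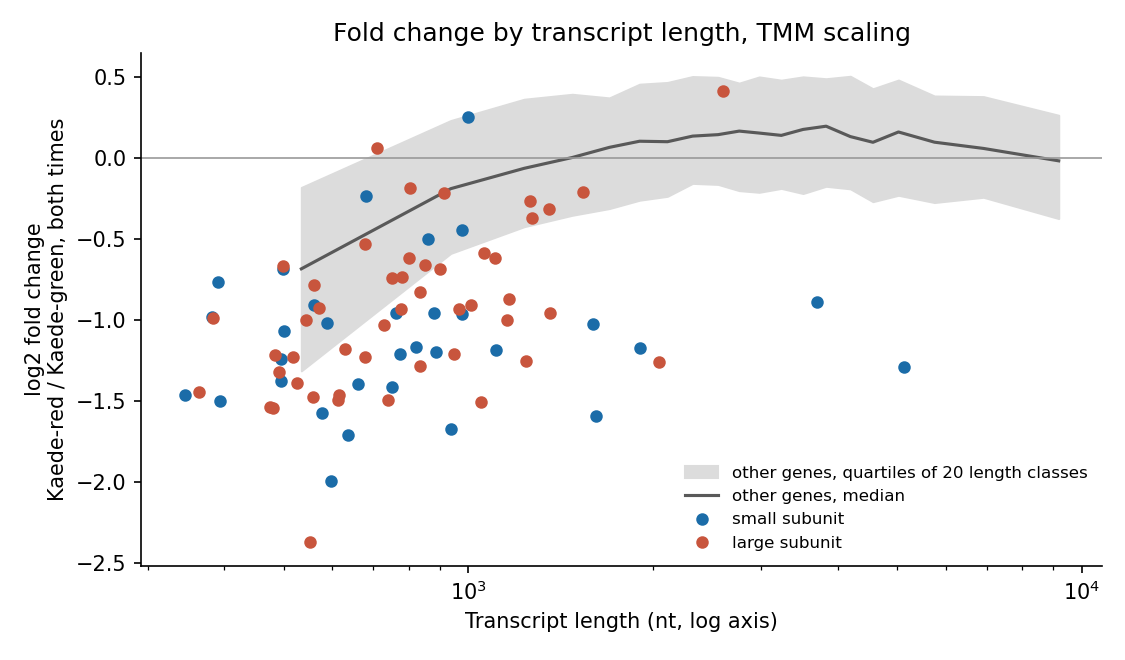
Log2 fold change, Kaede-red to Kaede-green over both times after TMM scaling, against transcript length (log axis) for the 80 tested ribosomal protein genes (points) and for 9511 other genes in 20 length classes (line, median; band, quartiles). Members below 500 nt have a median of -1.28 and others of that length -1.23, while at 1000 to 2000 nt these are -0.93 and 0.01; with library totals that include Rn45s the members' median lies above 0.

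Genes related to the members were read from lists, whose counts stand beside 10.3% of all genes lower over both times. Of 7 ribosomal protein pseudogenes, 6 were lower over both times and 0 higher (median -1.55), which cannot be told apart from reads of the parent genes. Fau, made as a fusion with a ubiquitin-like protein, and the small-subunit protein gene Gnb2l1 lie outside the naming rule and had log2 fold changes of -1.32 ± 0.17, adjusted p = 7.0e-07, and -1.02 ± 0.16, adjusted p = 1.3e-05. Of 15 other genes of the translation machinery whose mRNAs begin with a C and T run, 5 were lower and 1 higher with a median of -0.18. Those lower were Eef1b2 (-1.21 ± 0.15) and Tpt1 (-1.02 ± 0.16), an exchange factor of elongation and the translationally controlled tumour protein, with Naca (-0.60 ± 0.14), Eif3h (-0.52 ± 0.16) and Eif4a2 (-0.62 ± 0.16). The one higher was Pabpc1, the poly(A)-binding protein (0.44 ± 0.13, adjusted p = 0.0129). Eef1a1 and Eef2, the main elongation factors, had 0.17 ± 0.17, adjusted p = 0.541, and 0.26 ± 0.13, adjusted p = 0.168.

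In a list of 15 genes, those of mTORC1 and of translational control together with the transcription factor Myc, 0 were lower, also at an unadjusted p under 0.05 and by DESeq2, and 1, Myc, was higher (0.75 ± 0.27, adjusted p = 0.0469), with a median of 0.23. Larp1 had -0.23 ± 0.16, adjusted p = 0.340 and Mtor 0.01 ± 0.22, adjusted p = 0.987. Among 22 genes of ribosome assembly, 0 were called in either direction by edgeR or DESeq2, 1 was lower and 1 higher at an unadjusted p under 0.05, and their median was 0.03. The nucleolar proteins Ncl and Fbl had log2 fold changes of -0.26 ± 0.17 and -0.00 ± 0.23. Mitochondrial ribosomal proteins gave 9 lower and 2 higher of 77 tested, near the share of all genes lower, with a median of 0.04. Nuclear genes of the respiratory chain and ATP synthase gave 37 lower and 2 higher of 76 tested, out of 85 in the files, with a median of -0.51. As for the members, these directions are relative to the bulk of the genes, whose own median moved with the scaling as given above.

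Cell type markers moved with the same comparisons. Of 9 macrophage genes 8 were higher in Kaede-red cells over both times and 0 lower, with a median of 1.51. Their sum, with Fcgr1 the most abundant, was 372, 397, 266 and 263 CPM in Kaede-green and 684, 664, 537 and 451 CPM in Kaede-red libraries at 24h, and 308, 295, 297 and 359.7 CPM and 753, 719, 679 and 667 CPM at 72h. The colours were apart at both times, in the opposite direction to the ribosomal protein genes. The complement gene C1qa, for example, rose by 2.72 ± 0.16 on the log2 scale. Of 6 monocyte genes 4 were lower and 0 higher, with a median of -0.60. At 24h 4 were lower with a median of -1.49, and at 72h 1 was lower with a median of 0.20. Their sum, led by Plac8, was 1610.4, 1591, 1423 and 986 CPM in Kaede-green and 564, 598, 504 and 483 CPM in Kaede-red libraries at 24h. At 72h it was 715, 955, 1120.3 and 989 CPM and 535, 749, 705 and 488 CPM, with overlap. The part of these cell types in the members' fall was not tested.

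Of the leukocyte list, 2 of 6 genes were lower and 1 higher (median 0.14), led by Lyz2 (-1.24 ± 0.20, adjusted p = 2.0e-05). Its sum was 1882, 2223, 1786 and 916 CPM in Kaede-green and 878, 794, 694 and 545 CPM in Kaede-red libraries at 24h, and 1363, 1233, 1068 and 1499 CPM and 960.1, 1194, 1214 and 949 CPM at 72h. Of 6 fibroblast genes 4 were tested, of which 3 were lower and 0 higher (median -1.12). Their sum, led by Col3a1, was 48.5, 42.2, 41.8 and 55.2 CPM in Kaede-green and 19.8, 20.9, 37.7 and 38.6 CPM in Kaede-red libraries at 24h, and 51.5, 46.1, 50.6 and 51.0 CPM and 16.6, 19.5, 18.8 and 12.4 CPM at 72h. It was lower in every Kaede-red than in every Kaede-green library, as for the members, and its part in their fall was not tested, although the sort took CD45+ cells. The 6 genes of dividing cells, led by Top2a, gave 0 calls over both times by edgeR and DESeq2 (1 lower at an unadjusted p under 0.05, median -0.37) and 2 lower at 72h. Their sum was 37.4, 34.8, 52.0 and 54.4 CPM in Kaede-green and 27.8, 30.2, 65.7 and 58.4 CPM in Kaede-red libraries at 24h, and 40.6, 58.9, 42.1 and 53.3 CPM and 24.7, 23.1, 28.6 and 31.8 CPM at 72h. At 72h the Kaede-red libraries were below the Kaede-green ones.

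Markers of other cells were low. For neutrophils 2 of 10 genes were tested, 0 lower and 1 higher, Csf3r was the most abundant and Ngp was at 0 in every library. The list's sum lay between 9.42 and 23.0 CPM, with all Kaede-red libraries of 72h above all others. Dendritic cell genes summed to at most 5.09 CPM (2 of 6 tested, 1 higher, Cd209a the most abundant), T and NK cell genes to at most 6.13 CPM (1 of 9 tested, 1 higher by edgeR and 0 by DESeq2, Ncr1 the most abundant), and B cell genes to at most 2.45 CPM (1 of 5 tested, Cd79b the most abundant). Endothelial genes, led by Kdr, summed to 8.85 to 25.8 CPM (2 of 4 tested, 1 lower and 1 higher). Erythroid genes, led by Hba-a1, summed to at most 11.3 CPM (2 of 6 tested). None of the tested B cell and erythroid genes was called by edgeR or DESeq2 or had an unadjusted p under 0.05.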

How the data were processed

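RNA of 16 libraries of sorted CD11b+ cells was read as deposited counts: the authors used Trim Galore and FastQC on the reads, HISAT2 for alignment to mm10 and featureCounts for the counts per gene symbol, without normalization. The annotation, the strand setting and the treatment of reads with several matches are not stated. Genes kept by filterByExpr (9642 of 24421) were fitted with edgeR 4.0.16 in R 4.3.3, with TMM factors, a mean for each group and its quasi-likelihood test, all 16 libraries in 1 fit, and p-values were adjusted by the Benjamini-Hochberg method over all tested genes and called under 0.05. Log2 CPM had a prior count of 2. DESeq2 1.42.0, limma 3.58.1 as edgeR's base, other scalings and filters, a replicate block, an Rn45s covariate and length and GC offsets (99.5% of tested genes had both) were alternatives. The test was also run on simulated data, on which no result given here rests. Some genes are not reported here. Transcript length, GC content and positions came from GENCODE M21, 1 transcript a gene.

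The members and the lists were chosen with earlier results of these data known. Members were named if they had the 5 largest falls or rises over both times, or the 3 largest in another comparison, among called members with a mean log2 CPM of at least 4, if they had the 5 highest levels per length, or if they were fixed by role (Rpsa, Rplp0, Rplp1, Rplp2, Rps6, Rps3, Rpl5, Rpl11, Rpl13a, Rps27a) or as paralogs (Rpl3l, Rpl10l, Rpl22l1, Rpl39l, Rpl7l1, Rps27l, Rps4l). Shares have 95% Wilson intervals. The lists were the subunits, the P-stalk, pseudogenes, translation machinery, control by mTORC1, ribosome assembly, mitochondrial ribosomal proteins, the respiratory chain, and markers of leukocytes, macrophages, monocytes, neutrophils, dendritic, T and NK, B, tumour epithelial, fibroblast, endothelial, erythroid and dividing cells.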

Additional observations from a re-analysis of the deposited data

Results flagged for a closer look

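In 4 of 128 groups of 4 libraries looked at (32 values in each of 4 groups), 1 library stood apart from the other 3 by a gap that took up most of the group's range. Chance alone flags about 1 in 20 groups. Rplp2 was at 293 CPM in Kaede-green 72h replicate 2, against 176 to 192 CPM in the others of its group. Rps6 was at 167 CPM in Kaede-red 24h replicate 3, against 131 to 136 CPM. Rpl11 was at 44.1 CPM in Kaede-red 24h replicate 4, against 32.4 to 34.3 CPM. Rps27l was at 9.08 CPM in Kaede-red 72h replicate 2, against 5.83 to 5.99 CPM. No named member passed the test of the interaction of Kaede fluorescence and time in the main edgeR fit (19 members lower and 1 higher at an unadjusted p under 0.05, 2 lower in DESeq2, beside 1476 genes and 131 lower among all).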

How the results depend on the processing

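The choice of scaling changed most, and changes are given as lower and higher members and their median log2 fold change. With library totals that include Rn45s there were 0 lower and 66 higher over both times (median 1.10), 0 and 75 at 24h (1.35) and 0 and 32 at 72h (0.72), beside 9318, 9047 and 8091 higher of all 9642 genes. The medians with time were then 0.49 in Kaede-green cells and, with 0 lower, -0.16 in Kaede-red cells, and that of the interaction was -0.63. With totals outside Rn45s there were 36 and 11 over both times (-0.24), 3 and 10 at 24h (-0.024), 41 and 5 at 72h (-0.65) and 3 lower in the interaction (-0.58). Of all genes 234, 77 and 305 were then lower and 5889, 4570 and 3318 higher in the first 3, and 97 were lower in the interaction. With totals outside Rn45s, Lars2 and Mir6236, chosen after seeing the data, 2 were higher over both times and 2 at 24h. Of all genes 1920 and 700 were higher there. The log2 ratio of the summed share, Kaede-red to Kaede-green, was -0.34 outside Rn45s, 1.01 over all counts, 1.01 over the counts of tested genes, which include Rn45s, and -0.90 outside Rn45s, Lars2 and Mir6236. With the Rn45s share as a covariate 23 were lower over both times (-0.88), 8 lower and 0 higher at 24h (-0.72), 17 lower at 72h (-0.99) and 4 lower with time in Kaede-red cells (-0.44), beside 105, 118, 75 and 33 lower of all genes. Offsets for length and GC content gave a median of -0.70 over both times, 0 higher at 24h, 1 higher at 72h (-0.74), 5 lower and 1 higher with time in Kaede-red cells (-0.19, beside 141 lower and 283 higher of 9591 genes) and an interaction median of -0.025. The cause was not tested. A minimum of 10 counts in every library tests fewer genes. It gave 2 higher over both times and 2 higher at 24h, beside 640 and 262 of 3084 genes. In the interaction it gave 5 lower, beside 77. A fit of only the groups compared gave 0 higher at 24h, beside 181 of 7334 genes. The interaction had 2 lower in DESeq2, beside 131 of all genes, and 1 with the replicate block, beside 59. Without 1 library in turn, the count over both times was 70 to 73 lower and 0 to 1 higher, that at 24h 44 to 67 lower and 0 to 1 higher, that at 72h 61 to 67 lower, that with time in Kaede-red cells 9 to 37 lower, and that of the interaction 0 to 1 lower. The medians ran from -1.09 to -0.94, -1.06 to -0.79, -1.35 to -1.14, -0.59 to -0.44 and -0.45 to -0.13, and with time in Kaede-green cells from -0.36 to -0.11. RLE factors and TMM factors computed without the members kept every count within 1.5 times and every median's direction. Of 23 named members, 21 turned direction with totals that include Rn45s and 2 with totals outside Rn45s. These scalings shifted the median of all genes by 2.14 and 0.76. With totals outside Rn45s, Lars2 and Mir6236, with the covariate and with the offsets, 0 turned. Same-numbered Kaede-green and Kaede-red libraries had correlations of deviations across genes of 0.0493 to 0.153 at 24h and -0.0183 to 0.0287 at 72h. Replicates 1 and 2 of 24h also correlated across colours under unequal numbers (0.0701 and 0.147), as did replicates 3 and 4 (0.0598 and 0.0641). Replicates 1 or 2 of 1 colour against 3 or 4 of the other gave -0.132 to -0.027 there. The cause of this split was not tested. Whether equal numbers share a tumour is not stated, so no pairs were assumed. The replicate block called 58 members lower and 1 higher at 24h (median -0.90), beside 423 and 277 of all genes. With 18214 to 168868 counts of members a library, only the 4 paralogs with low counts were left untested. The part of depth in their low counts was not tested.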
